A study of Mus musculus with 12 samples.

Results

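Nuclear receptors are the family of transcription factors that read small fat-soluble molecules, and 45 of their genes were followed here through 3 states of mouse liver cells. The members were a list of gene symbols taken by family, with no rule on measured values but with earlier results of these data known. All 45 were found, by Ensembl identifier, among the 53715 genes of the count table, and 38 of them had more than 10 counts in at least 1 library and were tested.

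A nuclear receptor binds DNA through a pair of zinc fingers and binds its ligand through a separate pocket, and ligand binding exchanges corepressor proteins for coactivators. Many of the receptors of the liver bind DNA only as partners of a retinoid X receptor, among them the receptors for bile acids, fatty acids, oxysterols, retinoic acid, thyroid hormone and foreign compounds. In hepatocytes they set bile acid synthesis and export, lipid oxidation and storage, drug metabolism and the response to glucocorticoids. Members first described as orphan receptors act in the circadian clock and in the early response to stimuli.

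RNA was sequenced from 12 libraries of C57BL/6JOlaHsd mice, 4 in each of 3 groups. Hepatoblasts were Dlk1-positive liver progenitors sorted from E14.5 embryos, from pooled livers, and lysed at once. Diff. hepatocytes were such hepatoblasts after 4 days of culture under the first of the study's culture protocols, whose media held dexamethasone, a synthetic glucocorticoid, with insulin and serum. Mature hepatocytes were isolated from adult male mice of 8 to 12 weeks and lysed at once, so the groups differ in age, in culture and, for the mature cells, in sex, and these cannot be told apart. No group carries a labelled allele or transgene. The comparison of Diff. hepatocytes with hepatoblasts asks what changed as the cells differentiated in a dish, and the comparison with mature hepatocytes asks how far the receptor genes then lay from their level in the adult liver.

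Depth lay between 19581551 and 25216977 counts on genes per library. Levels are given as CPM, the counts of a gene scaled to the size of its library after edgeR's TMM scaling, as mean ± SD of 4 libraries. A count of 0 allows up to 3 counts, which is 0.0896 to 0.206 CPM over the 12 libraries and covers counting error only. A gene was called higher or lower when edgeR's quasi-likelihood test gave an adjusted p under 0.01 with a log2 fold change beyond 1 in size, and log2 fold changes are given with their SE. The hepatoblasts had been sorted on Dlk1. Summed hepatoblast markers (Dlk1, Afp and Gpc3) were 30900 to 52100 CPM in the hepatoblasts, 16400 to 20900 CPM in the Diff. hepatocytes and 36.2 to 66.8 CPM in the mature hepatocytes. Most of that sum was Afp, with means of 39300 CPM in the hepatoblasts and 18600 CPM in the Diff. hepatocytes. Dlk1 went from 3520 to 94.2 CPM and Gpc3 from 1280 to 382 CPM between these groups. The 4 hepatocyte markers summed to 34600 to 58700, 65500 to 79400 and 109000 to 151000 CPM, but did not move alike in culture. Ahsg (2580 to 22700 CPM) and Apoa1 (4540 to 9390 CPM) were called higher than in hepatoblasts. Alb (37800 and 40200 CPM) and Ttr (1950 and 1060 CPM) were not called. Markers of other cells also moved with the groups. Erythroid markers summed to 249 to 2070 CPM in the hepatoblasts, with the highest value in replicate 1, and to 5.24 to 13.4 CPM after culture and 135 to 183 CPM in the mature hepatocytes. Endothelial markers summed to 34.5 to 138, 4.89 to 10.7 and 132 to 235 CPM in the same order, and macrophage markers to 61.4 to 237, 19.6 to 133 and 101 to 201 CPM. Mesenchymal markers summed to 1240 to 2240, 1130 to 2590 and 66.5 to 97.3 CPM, and biliary markers to 27.0 to 36.0, 93.8 to 233 and 37.7 to 66.6 CPM. In bulk RNA, fewer cells of a type and less RNA per cell cannot be told apart.

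In mature hepatocytes the receptor genes stood mostly above hepatoblasts, and in Diff. hepatocytes a smaller number had risen. Against hepatoblasts, 10 of the 38 tested members were called higher in Diff. hepatocytes, where 14.9% of all 17779 tested genes were, and 6 were called lower, where 14.0% of all genes were. In mature hepatocytes 20 members were called higher than in hepatoblasts, beside 20.1% of all genes, and 4 were called lower, beside 24.7% of all genes. The median log2 fold change of the members was 0.16 in Diff. hepatocytes and 1.21 in mature hepatocytes, where all tested genes had medians of -0.01 and -0.15. Diff. hepatocytes lay below mature hepatocytes for 20 members, beside 15.6% of all genes, and above them for 1 member, beside 20.2%. The median of that comparison was -1.13 for the members and 0.09 for all genes. Hepatoblast replicate 1, with the highest erythroid, macrophage and endothelial sums of its group, and Diff. hepatocyte replicate 1, with the highest macrophage and mesenchymal sums of its group, each held several member values apart from the rest of their group. Without the first, 10 members were called higher and 5 lower in Diff. hepatocytes than in hepatoblasts, and without the second 11 and 5.

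These counts depend on how the libraries are scaled. With plain library totals in place of TMM, the median of all genes in mature hepatocytes against hepatoblasts moved from -0.15 to -1.0, and the split of the members moved from 20 higher and 4 lower to 13 higher and 8 lower. The same change moved the median of all genes from -0.01 to -0.34 in Diff. hepatocytes against hepatoblasts and from 0.09 to 0.62 in Diff. against mature hepatocytes, and the members then counted 10 higher and 8 lower, and 3 higher and 16 lower. Library totals ended the calls of Nr1i2, Thrb, Nr3c1, Nr3c2, Esrra, Esrrb and Esrrg in mature hepatocytes against hepatoblasts and of Rxra, Rara, Nr2f2 and Nr2f6 in Diff. against mature hepatocytes. They added lower calls for Thra and Nr2f2 in Diff. hepatocytes and for Ppard, Rarb, Thra and Nr2c2 in mature hepatocytes against hepatoblasts, and higher calls for Ppard and Nr2c2 in Diff. against mature hepatocytes. With the fold threshold placed inside edgeR's test, a stricter rule, 15 calls of 13 members ended, leaving 7 higher and 4 lower in Diff. hepatocytes and 17 higher and 2 lower in mature hepatocytes against hepatoblasts, and 0 higher and 16 lower between Diff. and mature hepatocytes. The calls that ended were those of Nr1d1, Nr1d2, Esrra, Nr2f1 and Nr4a2 in Diff. hepatocytes, of Nr3c1, Esrra, Esrrb, Vdr and Nr6a1 in mature hepatocytes against hepatoblasts, and of Vdr, Rxra, Rara, Nr2f2 and Nr2f6 between Diff. and mature hepatocytes, with adjusted p from 0.0132 for Vdr to 0.392 for Rara. The 3 comparisons share their samples, so their counts are not independent of each other.

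**Figure D1:**
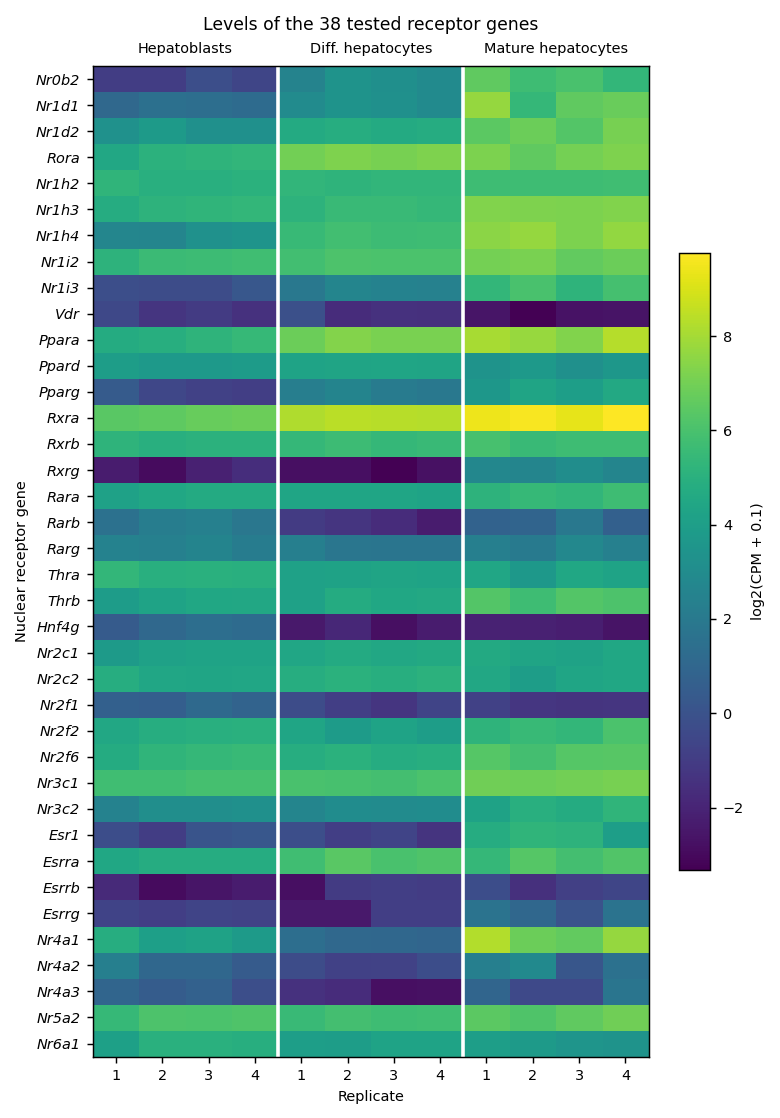
Levels of the 38 tested receptor genes as log2(CPM + 0.1), with 1 column for each of the 12 libraries and 1 row for each gene. Rxra has the brightest row in all 3 groups, and Nr0b2, Nr1h4 and Nr1i3 brighten from left to right.

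The 38 genes fell into a small number of courses. For 7 members, Nr0b2, Nr1d1, Nr1d2, Nr1h4, Nr1i3, Pparg and Rxra, Diff. hepatocytes were called above hepatoblasts and below mature hepatocytes. Another 3, Rora, Ppara and Esrra, were called above hepatoblasts in both hepatocyte groups and not different between these. For 6 members, Nr1h3, Rxrg, Thrb, Nr3c2, Esr1 and Esrrg, the mature group was called above both others, which were not called different. Rarb, Nr4a2 and Nr4a3 were called lower in Diff. hepatocytes than in either other group, as was Nr4a1, which was also called higher in mature hepatocytes than in hepatoblasts. Hnf4g and Nr2f1 were called lower than in hepatoblasts in both hepatocyte groups. Nr1i2, Nr3c1 and Esrrb were called higher in mature hepatocytes than in hepatoblasts alone, Rara, Nr2f2 and Nr2f6 lower in Diff. than in mature hepatocytes alone, Nr6a1 lower in mature hepatocytes than in hepatoblasts alone, and Vdr lower in mature hepatocytes than in both other groups. In 8 members, Nr1h2, Ppard, Rxrb, Rarg, Thra, Nr2c1, Nr2c2 and Nr5a2, no comparison was called.

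**Figure D2:**
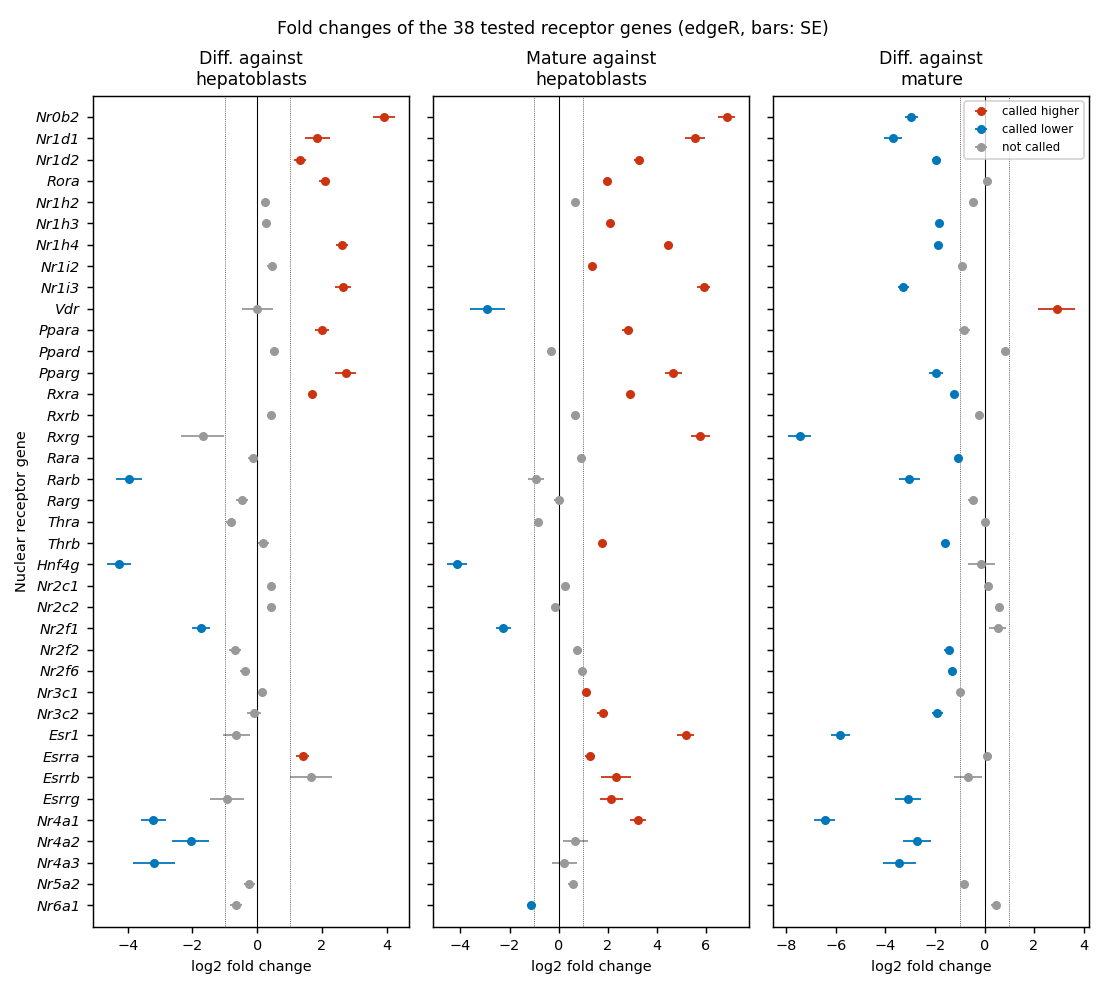
Log2 fold changes of the 38 tested genes in the 3 comparisons, with bars of 1 SE, dotted lines at -1 and 1, and red, blue and grey for genes called higher, called lower and not called. The 10 red genes of the left panel are among the 20 red genes of the middle panel.

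Set on a common scale, as CPM per kb of merged exons, the retinoid X receptor gene Rxra led the 45 listed genes in both hepatocyte groups, a list that does not hold every gene of the superfamily. It stood at 58.9 ± 3.73 CPM per kb in Diff. hepatocytes, ahead of Ppara at 36.0 ± 4.96 CPM per kb, Nr1i2 at 25.3 ± 2.06 and Nr1h4 at 21.8 ± 1.94. In mature hepatocytes Rxra reached 137 ± 20.2 CPM per kb, followed by Nr1h4 at 80.2 ± 11.6, and the next levels, Ppara at 62.9 ± 18.5, Nr1h3 at 60.4 ± 2.35, Nr0b2 at 56.0 ± 21.5 and Nr4a1 at 52.1 ± 28.0, lay within each other's spread. In hepatoblasts the highest level per kb was that of the xenobiotic receptor gene Nr1i2 at 18.5 ± 3.39, which did not differ beyond the spread from Rxra at 18.2 ± 2.48. The number of members with a mean of at least 10 CPM was 21 in the hepatoblasts, 21 in the Diff. hepatocytes and 28 in mature hepatocytes. These numbers depend on the TMM factors, which were 1.23 to 1.44 in the hepatoblasts and 0.677 to 0.778 in mature hepatocytes. A lower factor gives a higher CPM, and the same count over all genes was not made.

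The bile acid receptor FXR, the gene Nr1h4 at chr10:89454234-89533585 on the minus strand of GRCm38, senses bile acids and limits their synthesis. Its libraries read 6.29, 6.21, 9.81 and 10.7 CPM in the hepatoblasts, 44.5, 55.4, 50.3 and 51.1 CPM in the Diff. hepatocytes and 183, 205, 147 and 203 CPM in the mature hepatocytes. The groups did not overlap and rose in that order. The log2 fold change was 2.61 ± 0.18 in Diff. hepatocytes and 4.48 ± 0.20 in mature hepatocytes against hepatoblasts (edgeR adjusted p = 6.79e-08 and 2.95e-10), and Diff. hepatocytes lay 1.88 below the mature cells on the log2 scale, at -1.88 ± 0.17. Its target SHP, the gene Nr0b2 at chr4:133553376-133556536 on the plus strand, is a receptor without a DNA-binding domain that represses other receptors. Nr0b2 read 0.419, 0.418, 0.777 and 0.563 CPM in the hepatoblasts, 5.66, 10.6, 9.06 and 7.54 CPM in the Diff. hepatocytes and 96.7, 52.8, 64.1 and 39.9 CPM in the mature hepatocytes. Again no library of a group reached the next, and the log2 fold changes against hepatoblasts were the largest of the tested members in the mature cells, 3.91 ± 0.34 and 6.85 ± 0.34 (edgeR adjusted p = 4.51e-07 and 1.1e-09).

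Of 7 tested genes listed as FXR targets, 6 were called higher in Diff. hepatocytes and 5 in mature hepatocytes than in hepatoblasts, and none lower, with median log2 fold changes of 2.78 and 4.06. Of all tested genes, 14.9% were called higher and 14.0% lower in Diff. hepatocytes and 20.1% higher and 24.7% lower in mature hepatocytes, and the counts of this and the following lists stand beside those shares. Abcb11, the bile salt export pump of the canalicular membrane, rose from 55.6 ± 15.0 CPM to 477 ± 84.5 CPM in culture and stood at 925 ± 261 CPM in the mature hepatocytes, which was not called different from culture (log2 fold change of Diff. against mature hepatocytes -0.96 ± 0.23). Baat, which conjugates bile acids to amino acids, was further from the adult level, with 2.29 ± 0.786, 81.2 ± 15.0 and 326 ± 25.9 CPM. Cyp7a1 and Cyp8b1, enzymes of bile acid synthesis that the FXR and SHP route represses, were also called higher in both hepatocyte groups. Cyp7a1 read 1.82 ± 0.768 CPM in the hepatoblasts, 45.4 ± 3.02 CPM in the Diff. hepatocytes and 162 ± 98.5 CPM in the mature hepatocytes, and Cyp8b1 2.42 ± 0.83, 37.8 ± 9.56 and 536 ± 157 CPM.

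The 2 sensors of foreign compounds moved unequally. PXR, the gene Nr1i2, was already present in hepatoblasts, at 34.7, 49.1, 49.9 and 54.8 CPM, against 56.8, 68.3, 65.9 and 67.2 CPM in the Diff. hepatocytes and 133, 141, 99.6 and 112 CPM in the mature hepatocytes. The groups did not overlap, but only the mature cells were called against hepatoblasts (log2 fold change 1.36 ± 0.14, edgeR adjusted p = 1.58e-06), and with library totals this call was lost. CAR, the gene Nr1i3 at chr1:171213970-171220701 on the plus strand, was low in hepatoblasts, with 0.774, 0.717, 0.712 and 1.09 CPM. It read 3.63, 6.2, 5.51 and 5.37 CPM in the Diff. hepatocytes and 40.2, 63.9, 36.5 and 60.5 CPM in the mature hepatocytes, log2 fold changes of 2.65 ± 0.25 and 5.92 ± 0.26 against hepatoblasts (edgeR adjusted p = 1.16e-06 and 3.07e-10). The gap between culture and adult was a log2 fold change of -3.28 ± 0.22. Exons of the gene Tomm40l on the opposite strand cover 74.9% of the Nr1i3 exons, and Tomm40l itself had group means of 10.1 ± 1.38, 8.23 ± 0.697 and 8.03 ± 1.66 CPM in the same order.

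The genes that CAR and PXR are known to induce were mostly higher in hepatocytes than in hepatoblasts and lower in culture than in the adult, with a large exception. Of 11 tested, 9 were called higher in Diff. hepatocytes than in hepatoblasts and 10 in mature hepatocytes, with medians of 3.86 and 5.04 on the log2 scale, while 7 were lower and 1 higher in Diff. than in mature hepatocytes. That is 81.8% and 90.9% called higher, where 14.9% and 20.1% of all genes were, and 63.6% lower between culture and adult, where 15.6% were. The gene that was higher was Cyp2b10, the classical CAR target, which read 0.256 ± 0.0668 CPM in the hepatoblasts, 192 ± 35.2 CPM in the Diff. hepatocytes and 7.92 ± 5.69 CPM in the mature hepatocytes, where Nr1i3 itself was 9.70-fold higher than in culture. Cyp2c29 showed the opposite order, with 0.275 ± 0.105, 0.765 ± 0.233 and 1550 ± 387 CPM (log2 fold change of Diff. against mature hepatocytes -10.98 ± 0.30). Ugt1a1, which conjugates bilirubin, had 0.0646 ± 0.0284, 6.9 ± 1.24 and 103 ± 28.7 CPM, and Slco1a4, an uptake transporter, 2 counts in the 4 hepatoblast libraries together, 0.345 ± 0.181 CPM in the Diff. hepatocytes and 36.4 ± 25.5 CPM in the mature hepatocytes. Cyp3a11, a drug-metabolizing enzyme induced through PXR, stood between, with 5.43 ± 2.0, 355 ± 19.3 and 3940 ± 852 CPM. Members of the Cyp2b and Cyp2c families are near-identical copies and those of the Ugt1a family share exons, and their reads may be shared between genes. Gadd45b, a stress gene also induced through CAR, was the member of this list called lower in both hepatocyte groups, at 79.0 ± 18.8, 26.2 ± 3.42 and 11.6 ± 10.8 CPM.

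Among the receptors for fatty acids, Ppara, at chr15:85734983-85802819 on the plus strand, drives fatty acid oxidation in the liver. It read 26.3, 29.4, 37.1 and 44.0 CPM in the hepatoblasts, 114, 160, 139 and 139 CPM in the Diff. hepatocytes and 269, 215, 158 and 323 CPM in the mature hepatocytes. Both hepatocyte groups lay clear of hepatoblasts and overlapped each other. The log2 fold changes against hepatoblasts were 2.01 ± 0.22 and 2.82 ± 0.22 (edgeR adjusted p = 3.67e-06 and 8.17e-08), and the difference between culture and adult, -0.81 ± 0.21, was not called. Pparg, the lipid storage receptor of fat cells, was low, at 1.26, 0.597, 0.486 and 0.431 CPM in the hepatoblasts, 4.71, 5.85, 4.26 and 3.65 CPM in the Diff. hepatocytes and 12.0, 19.6, 15.8 and 24.2 CPM in the mature hepatocytes, with no overlap between the groups. Ppard, which is broadly expressed, was called in no comparison, at 14.0 ± 1.09, 20.1 ± 0.602 and 11.2 ± 1.58 CPM.

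Within the PPAR family, measured per kb in each library, Ppara held 80.4% ± 5.11 in the hepatoblasts, 89.4% ± 1.15 in the Diff. hepatocytes and 88.9% ± 2.98 in mature hepatocytes. The share of Ppard was 17.3% ± 3.57, 6.73% ± 0.751 and 2.22% ± 0.519, with ranges that did not overlap. Such shares are taken within a library and so do not depend on the scaling between libraries, but they do depend on the exon length used.

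Most target genes of PPARα rose in culture. Of 14 tested, 13 were called higher in Diff. hepatocytes than in hepatoblasts and 12 in mature hepatocytes, with 1 lower in each, and the median log2 fold changes were 2.82 and 3.44. The shares called higher were 92.9% and 85.7%, where 14.9% and 20.1% of all genes were. Cyp4a10 and Cyp4a14, fatty acid hydroxylases of one family whose reads may be shared between copies, had the largest changes of the list in mature hepatocytes. Cyp4a10 read 0.078 ± 0.0564, 30.5 ± 8.38 and 423 ± 248 CPM in hepatoblasts, Diff. and mature hepatocytes, and Cyp4a14 0.125 ± 0.0893, 59.0 ± 37.2 and 552 ± 486 CPM. Cpt1a, which admits fatty acids to mitochondria, read 31.2 ± 2.2 CPM in the hepatoblasts, 469 ± 68.3 CPM in the Diff. hepatocytes and 727 ± 153 CPM in the mature hepatocytes. Fgf21, a hormone induced in fasting, had 0 counts in all hepatoblast libraries and 4.27 ± 3.24 CPM in the Diff. hepatocytes, which is at least 44.6-fold higher when hepatoblasts are set at 3 counts per library. Against mature hepatocytes, 7 of the 14 were called lower in culture, where 15.6% of all genes were. Pdk4, a kinase that spares glucose, was called higher, at 114 ± 10.5 CPM against 12.8 ± 9.77 CPM. The largest gap to the adult was that of Acaa1b, a peroxisomal thiolase, at 57.2 ± 16.3 CPM in the Diff. hepatocytes and 1390 ± 389 CPM in the mature hepatocytes. The gene called lower than in hepatoblasts in both groups was Acot1, a thioesterase of acyl-CoA, with 49.4 ± 11.1, 10.3 ± 3.78 and 23.0 ± 12.7 CPM.

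The oxysterol receptor LXRα, the gene Nr1h3, which governs cholesterol disposal and lipid synthesis, was not called different in culture. It read 27.1, 35.0, 38.1 and 40.4 CPM in the hepatoblasts and 35.2, 46.0, 46.0 and 42.3 CPM in the Diff. hepatocytes, ranges that overlapped (log2 fold change 0.27 ± 0.12, edgeR adjusted p = 0.0708), and the sign of this change turned with library totals. Mature hepatocytes stood apart at 158, 149, 145 and 156 CPM, 2.11 ± 0.12 above hepatoblasts on the log2 scale (edgeR adjusted p = 4.8e-09). LXRβ, the gene Nr1h2, was called in no comparison, at 32.8 ± 3.42, 38.4 ± 1.42 and 53.1 ± 1.17 CPM, and the share of Nr1h3 in the pair, per kb, was 58.6% ± 6.46 in the hepatoblasts, 59.4% ± 3.50 in the Diff. hepatocytes and 79.2% ± 0.481 in mature hepatocytes. Of 11 tested LXR targets, 4 were called higher in Diff. hepatocytes and 5 higher and 1 lower in mature hepatocytes than in hepatoblasts, with medians of 0.62 and 0.37. These were 36.4% higher in culture and 45.5% higher and 9.09% lower in the adult, where all genes had 14.9%, 20.1% and 24.7%. The sterol exporter genes Abcg5 and Abcg8 were among the 4, Abcg5 at 0.995 ± 0.336, 68.0 ± 16.9 and 121 ± 35.1 CPM, while Abca1, another sterol exporter, was called in no comparison, at 486 ± 93.7, 386 ± 32.4 and 359 ± 52.4 CPM. Lpl, a lipase of fat and muscle, was called higher in Diff. hepatocytes (937 ± 90.0 CPM) and lower in mature hepatocytes (18.7 ± 11.6 CPM) than in hepatoblasts (390 ± 71.7 CPM).

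The common partner Rxra, at chr2:27676440-27762957 on the plus strand, rose in both steps. Hepatoblasts read 84.4, 92.4, 107 and 114 CPM, Diff. hepatocytes 296, 342, 334 and 315 CPM and mature hepatocytes 689, 810, 631 and 872 CPM, with no overlap. The log2 fold changes against hepatoblasts were 1.69 ± 0.13 and 2.91 ± 0.13 (edgeR adjusted p = 1.31e-07 and 4.43e-10), and Diff. hepatocytes lay at -1.22 ± 0.13 against the mature group, a call that library totals removed. Rxrb was called in no comparison, at 33.6 ± 2.32, 45.2 ± 3.95 and 53.1 ± 6.1 CPM. The share of Rxra among the RXR genes, per kb, was 67.9% ± 3.50 in the hepatoblasts, 83.8% ± 0.946 in the Diff. hepatocytes and 89.2% ± 2.17 in mature hepatocytes.

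The third RXR gene, Rxrg, known mainly from muscle and brain, was close to a presence or absence difference. It had 3 counts in the 4 Diff. hepatocyte libraries together, and 15 in those of hepatoblasts, against 6.65, 6.1, 8.58 and 6.15 CPM in the mature hepatocytes. The ratio of mature to Diff. hepatocytes from pooled counts was 205, with a 95% interval of 69.8 to 999 that covers counting error only, and the log2 fold change in mature hepatocytes against hepatoblasts was 5.77 ± 0.39 (edgeR adjusted p = 1.88e-08).

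**Figure D3:**
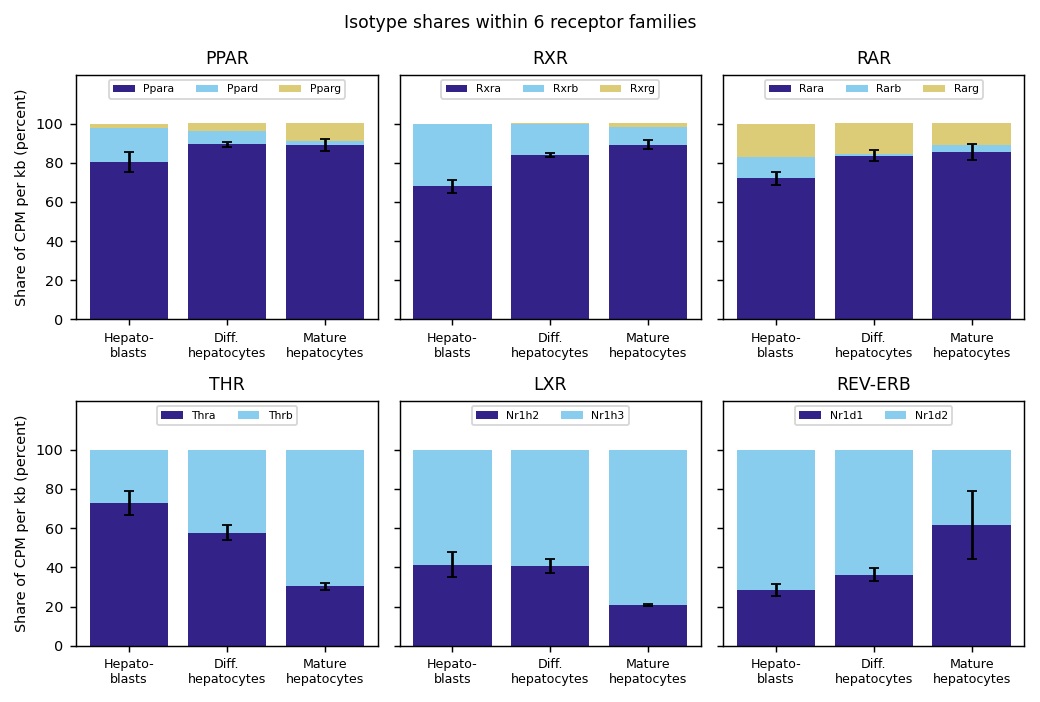
Share of each gene in the summed CPM per kb of its family, in percent, as the mean of 4 libraries, with bars of 1 SD for the first gene of each family. Thra falls from 72.7% in hepatoblasts to 30.4% in mature hepatocytes, and Rxra climbs from 67.9% to 89.2%.

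Thyroid hormone receptors changed their balance. Thrb, the isotype through which thyroid hormone mainly acts in the adult liver, overlapped between hepatoblasts (15.0, 18.9, 22.0 and 23.3 CPM) and Diff. hepatocytes (17.9, 26.6, 21.9 and 24.0 CPM) and was higher in mature hepatocytes (77.6, 52.6, 75.6 and 68.7 CPM), where no library overlapped the other groups. The log2 fold change in mature hepatocytes against hepatoblasts was 1.79 ± 0.16 (edgeR adjusted p = 3.84e-07) and was not called with library totals. Thra was called in no comparison, at 33.2 ± 4.95, 19.0 ± 0.781 and 18.8 ± 4.38 CPM. Thrb made up 27.3% ± 6.09 of the pair per kb in the hepatoblasts, 42.4% ± 3.84 in the Diff. hepatocytes and 69.6% ± 1.82 in mature hepatocytes, and the ranges of the 3 groups did not overlap. Without scaling by exon length it made up 37.5% ± 7.36, 54.1% ± 3.90 and 78.6% ± 1.44 in the same order. Which isotype led in Diff. hepatocytes thus depended on that scaling.

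The enzymes that activate and destroy thyroid hormone were further apart than the receptors. Dio1, the activating deiodinase of the liver, read 0.136 ± 0.0556, 1.91 ± 1.15 and 190 ± 44.1 CPM, and was called in all 3 comparisons. Dio3, the inactivating deiodinase of fetal tissue, had 1.07 ± 0.319 CPM in the hepatoblasts and 1.71 ± 0.262 CPM in the Diff. hepatocytes, and only 2 counts in the 4 mature libraries together, a pooled ratio of Diff. to mature hepatocytes of 54.1 (95% counting interval 14.7 to 450). Of 6 tested thyroid hormone targets, 5 were called higher than in hepatoblasts in each hepatocyte group, with medians of 3.59 and 4.82, and 4 were called lower in Diff. than in mature hepatocytes. The share called higher was 83.3% in each, where 14.9% and 20.1% of all genes were. The share called lower in Diff. than in mature hepatocytes was 66.7%, where 15.6% of all genes were. Thrsp, a lipogenic gene named for its response to the hormone, read 0.205 ± 0.078, 21.0 ± 3.21 and 525 ± 246 CPM. Dio1 is counted in this list as well as among the enzymes, and Klf9 stands in both this list and that of glucocorticoid targets.

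Of the retinoic acid receptors, Rarb was lowest in culture. Rarb, whose promoter is itself a retinoic acid target, read 2.9, 4.51, 5.18 and 3.61 CPM in the hepatoblasts, 0.389, 0.301, 0.222 and 0.0986 CPM in the Diff. hepatocytes and 1.65, 1.73, 3.62 and 1.49 CPM in the mature hepatocytes. Diff. hepatocytes lay below every library of the other groups, at log2 fold changes of -3.96 ± 0.40 against hepatoblasts and -3.03 ± 0.41 against mature hepatocytes (edgeR adjusted p = 2.13e-06 and 2.29e-05). Mature hepatocytes were not called against hepatoblasts (-0.93 ± 0.33), but were called lower when mature replicate 3 was left out, at -1.33, and with library totals, at -1.75 (edgeR adjusted p = 0.000362). Endothelial markers were also lowest after culture. Hepatic stellate cells, which store retinoids, are part of the mesenchymal list, whose sum was lowest in the mature hepatocytes. That sum was 1240 to 2240 CPM in the hepatoblasts, 1130 to 2590 CPM in the Diff. hepatocytes and 66.5 to 97.3 CPM in the mature hepatocytes. The part of other cells in the Rarb levels was not tested. Exons of Top2b on the opposite strand cover 34.1% of the Rarb exons.

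Rara, the main isotype of the 3 by level, was called lower in Diff. than in mature hepatocytes, at 21.0, 20.8, 20.8 and 19.3 CPM against 34.8, 43.2, 39.5 and 51.9 CPM, with 18.0, 22.2, 25.2 and 25.2 CPM in the hepatoblasts. That call (log2 fold change -1.05 ± 0.13, edgeR adjusted p = 1.18e-05) was lost when mature replicate 4 was left out, at -0.94, with at least 10 counts asked of every library, also at -0.94, with library totals, and with the fold threshold inside the test (edgeR adjusted p = 0.392). Rarg was called in no comparison, at 5.23 ± 0.628, 3.75 ± 0.786 and 5.24 ± 1.13 CPM.

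Of 6 tested genes known to be induced by retinoic acid, none was called higher and 2 were called lower in Diff. hepatocytes than in hepatoblasts, while in mature hepatocytes 3 were called higher and 3 lower. Of all genes, 14.9% were higher and 14.0% lower in culture. The enzymes that clear retinoic acid accounted for 2 of those higher in mature cells. Cyp26a1 had 0.143 ± 0.0149 CPM in the hepatoblasts, 5 counts in the 4 Diff. hepatocyte libraries together and 34.0 ± 14.9 CPM in the mature hepatocytes, a pooled ratio of mature to Diff. hepatocytes of 617 (95% counting interval 264 to 1900). Cyp26b1 read 0.468 ± 0.307, 0.535 ± 0.926 and 11.4 ± 10.6 CPM. On the side of synthesis, Aldh1a1 rose from 2.03 ± 0.161 to 23.3 ± 8.37 CPM in culture and stood at 1550 ± 262 CPM in the mature hepatocytes, whereas Aldh1a2, the main enzyme of the embryo, was called lower than in hepatoblasts in both, at 0.677 ± 0.281 CPM in the hepatoblasts.

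The glucocorticoid receptor gene Nr3c1, on chromosome 18, was not called different in culture and was higher in the adult. Hepatoblasts read 54.1, 54.8, 60.1 and 60.5 CPM, Diff. hepatocytes 65.2, 61.9, 57.7 and 67.8 CPM and mature hepatocytes 124, 116, 127 and 136 CPM. The first pair of groups overlapped (log2 fold change 0.14 ± 0.08, edgeR adjusted p = 0.151), and mature hepatocytes stood above both, called against hepatoblasts (1.13 ± 0.08, edgeR adjusted p = 3.05e-08) and just short of the fold threshold against Diff. hepatocytes (-0.99 ± 0.08). The second of these was called when any of Diff. hepatocyte replicates 1 and 4 and mature replicates 1 and 2 was left out, and the first was not called with library totals. The mineralocorticoid receptor gene Nr3c2 read 5.45, 8.78, 8.91 and 9.38 CPM in the hepatoblasts, 6.05, 8.14, 7.95 and 8.14 CPM in the Diff. hepatocytes and 18.4, 30.4, 26.3 and 37.8 CPM in the mature hepatocytes, with the mature group called above both others. Against hepatoblasts the log2 fold change of 1.80 fell to 0.96 with library totals, and the call was lost.

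Glucocorticoid target genes split between culture and adult, in a medium that held dexamethasone. Of 10 tested, 8 were called higher and 1 lower in Diff. hepatocytes than in hepatoblasts, the median log2 fold change being 3.22, and 6 were called higher in mature hepatocytes, with a median of 1.87. The shares called higher were 80.0% and 60.0%, where 14.9% and 20.1% of all genes were. Between Diff. and mature hepatocytes 4 were higher and 4 lower, beside 20.2% and 15.6% of all genes. The 4 higher in culture were Igfbp1, which binds insulin-like growth factors, at 250 ± 53.2, 4820 ± 659 and 497 ± 188 CPM, Sgk1, a kinase of salt and stress responses, at 35.4 ± 7.32, 184 ± 24.3 and 33.8 ± 2.98 CPM, Fkbp5, a chaperone of the receptor itself, at 86.8 ± 13.6, 270 ± 25.0 and 56.2 ± 16.5 CPM, and Zbtb16, a zinc finger repressor, at 1.40 ± 1.47, 116 ± 9.79 and 34.6 ± 4.91 CPM. The 4 lower in culture were Pck1, Dusp1, Tat and Klf9. Pck1, the control enzyme of gluconeogenesis, read 16.7 ± 2.65, 436 ± 98.6 and 4430 ± 669 CPM, and Tat, a tyrosine-degrading enzyme of late liver development, 2.33 ± 0.261, 725 ± 145 and 2410 ± 254 CPM. Hsd11b1, which regenerates active glucocorticoid inside hepatocytes, was called in all 3 comparisons, at 1.13 ± 0.543, 7.22 ± 2.83 and 596 ± 66.4 CPM, and Hsd11b2, which inactivates it, was called lower than in hepatoblasts in both hepatocyte groups, at 2.94 ± 0.836, 0.373 ± 0.106 and 0.0948 ± 0.153 CPM.

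**Figure D4:**
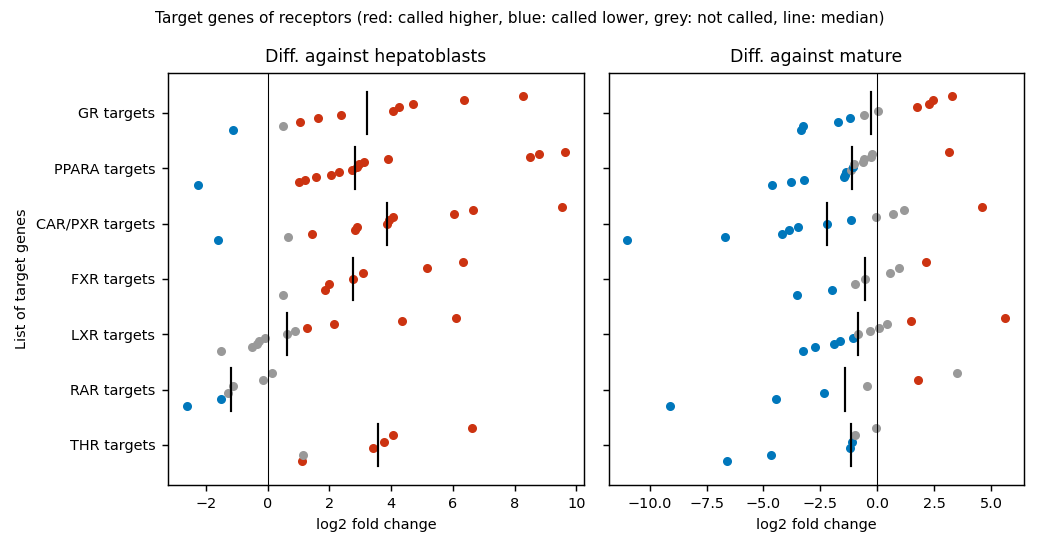
Log2 fold changes of the tested genes of 7 lists of receptor targets, for Diff. hepatocytes against hepatoblasts (left) and against mature hepatocytes (right), with a vertical line at each list's median. PPARA targets have 13 of 14 genes called higher on the left, and GR targets divide into 4 higher and 4 lower on the right.

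The estrogen receptor gene Esr1 was an adult gene in these samples, which for the mature group were male. It read 0.742, 0.418, 0.971 and 1.09 CPM in the hepatoblasts, 0.778, 0.43, 0.533 and 0.296 CPM in the Diff. hepatocytes and 27.5, 37.7, 35.6 and 16.0 CPM in the mature hepatocytes. Hepatoblasts and Diff. hepatocytes overlapped, and the mature group was far above them, at log2 fold changes of 5.18 ± 0.35 against hepatoblasts and, for Diff. against mature hepatocytes, -5.81 ± 0.37 (edgeR adjusted p = 1.62e-08 and 2.1e-08). Of the orphan estrogen-related receptors, Esrra, a regulator of mitochondrial genes, rose in culture to the adult level, with 22.1, 27.6, 27.0 and 27.5 CPM in the hepatoblasts, 53.3, 86.5, 64.7 and 71.1 CPM in the Diff. hepatocytes and 41.4, 79.3, 57.7 and 74.9 CPM in the mature hepatocytes. Both hepatocyte groups were called above hepatoblasts (log2 fold changes 1.40 ± 0.19 and 1.28 ± 0.19), the second not with library totals. Its coactivator Ppargc1b was called higher in both groups too, at 1.97 ± 0.582, 34.0 ± 1.48 and 18.9 ± 6.34 CPM, while Ppargc1a, induced by fasting and cold, was called lower in mature hepatocytes than in hepatoblasts and higher in Diff. than in mature hepatocytes, at 22.2 ± 5.57, 35.2 ± 6.62 and 10.9 ± 2.89 CPM.

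Esrrg was low throughout and highest in mature hepatocytes, at 0.516, 0.448, 0.55 and 0.497 CPM in the hepatoblasts, 0.0865, 0.0861, 0.444 and 0.444 CPM in the Diff. hepatocytes and 3.02, 1.99, 0.934 and 3.1 CPM in the mature hepatocytes, where it was called above both other groups. Its call against hepatoblasts was lost with library totals, where the log2 fold change went from 2.15 to 1.29 (edgeR adjusted p = 0.0161). The third, Esrrb, a factor of pluripotent cells, stayed below 1 CPM in every library, with group means of 0.0969, 0.317 and 0.509 CPM. Its call in mature hepatocytes against hepatoblasts (log2 fold change 2.34 ± 0.63, edgeR adjusted p = 0.0044) was lost without hepatoblast replicate 2, 3 or 4, without mature replicate 4, and with library totals.

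The clock receptors REV-ERBα and REV-ERBβ are repressors whose level swings over the day in liver. Nr1d1, at chr11:98767932-98775333 on the minus strand, read 2.06, 2.72, 2.59 and 2.25 CPM in the hepatoblasts, 7.78, 10.3, 9.42 and 7.59 CPM in the Diff. hepatocytes and 208, 42.5, 95.0 and 108 CPM in the mature hepatocytes. The groups did not overlap (log2 fold changes 1.86 ± 0.38 and 5.55 ± 0.41 against hepatoblasts, edgeR adjusted p = 0.000929 and 4.2e-08), and the 4 mature libraries differed among themselves more than the libraries of either other group. Nr1d2 read 9.74, 14.0, 9.49 and 9.51 CPM, 26.0, 28.7, 25.3 and 27.8 CPM and 87.6, 113, 76.3 and 137 CPM in the same order of groups, with log2 fold changes of 1.33 ± 0.18 and 3.27 ± 0.19. The culture calls of both genes were lost with the fold threshold inside the test (edgeR adjusted p = 0.0264 for Nr1d1 and 0.05 for Nr1d2). Nr1d1 held 61.8% ± 17.3 of the pair per kb in mature hepatocytes, between 39.8% and 80.7%, against 28.6% ± 3.01 in hepatoblasts and 36.3% ± 3.39 in Diff. hepatocytes. Without scaling by exon length it held 49.3% ± 18.1 in mature hepatocytes, 18.6% ± 2.24 in hepatoblasts and 24.5% ± 2.71 in Diff. hepatocytes. The hour of collection is not given in the sources used here.

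Their counterpart Rora, an activator at the same DNA elements, reached the adult level in culture. It read 22.9, 33.7, 36.0 and 39.8 CPM in the hepatoblasts, 127, 149, 137 and 149 CPM in the Diff. hepatocytes and 144, 95.5, 132 and 150 CPM in the mature hepatocytes, and the latter groups overlapped (log2 fold changes 2.08 ± 0.17 and 1.98 ± 0.17 against hepatoblasts, 0.10 ± 0.17 between them). Of 12 tested clock genes under these receptors, 2 were called higher and 1 lower in Diff. hepatocytes and 6 higher and none lower in mature hepatocytes than in hepatoblasts, with medians of 1.01 and 1.00. The shares in culture were 16.7% higher and 8.33% lower, beside 14.9% and 14.0% of all genes. In mature hepatocytes 50.0% were higher, where 20.1% of all genes were. The 3 groups share 1 estimate of spread, so the spread of the mature libraries also enters the culture comparison. Arntl, Clock, Npas2, Nfil3, Dbp, Tef and Ciart did not overlap between hepatoblasts and Diff. hepatocytes, yet were not called, while Per2 and Per3 overlapped. The log2 fold change of Arntl was 1.35 ± 0.66 and that of Dbp 1.46 ± 0.64. The share called in culture thus cannot tell whether these genes moved more than all genes. The mature libraries split by replicate. Arntl, which REV-ERB represses, read 23.8 and 22.8 CPM in mature replicates 1 and 3 and 1.48 and 1.18 CPM in replicates 2 and 4, and Dbp, an output of the clock, 24.9 and 24.9 CPM in the first pair and 122 and 159 CPM in the second. Group means of these genes in mature hepatocytes therefore describe no single library. Arntl, at 13.3 ± 3.42 CPM in the hepatoblasts and 33.9 ± 4.35 CPM in the Diff. hepatocytes, was called in no comparison, and Dbp stood at 1.03 ± 0.131 and 2.86 ± 0.472 CPM in those groups. Bhlhe41, a repressor of the clock, had the largest change of the list in mature hepatocytes, with 0.104 ± 0.062, 0.846 ± 0.547 and 10.6 ± 6.61 CPM.

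The NR4A receptors are orphan receptors with no open ligand pocket, induced within minutes as immediate-early genes. All 3 were lowest in culture. Nr4a1, at chr15:101254269-101274795 on the plus strand, read 28.2, 16.8, 18.3 and 14.0 CPM in the hepatoblasts, 2.55, 2.02, 1.95 and 1.82 CPM in the Diff. hepatocytes and 311, 115, 97.3 and 208 CPM in the mature hepatocytes. The groups were far apart, with log2 fold changes of -3.21 ± 0.38 in Diff. hepatocytes and 3.24 ± 0.34 in mature hepatocytes against hepatoblasts and of -6.44 ± 0.42 between Diff. and mature hepatocytes (edgeR adjusted p = 9.51e-06, 1.46e-06 and 2.21e-08), the latter an 87.0-fold difference.

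Nr4a2 read 4.97, 2.0, 1.98 and 1.23 CPM in the hepatoblasts, 0.735, 0.474, 0.489 and 0.74 CPM in the Diff. hepatocytes and 4.94, 7.38, 1.05 and 2.86 CPM in the mature hepatocytes. Diff. hepatocytes lay below all other libraries, but the call against hepatoblasts (log2 fold change -2.05 ± 0.57, edgeR adjusted p = 0.00687) was lost without hepatoblast replicate 1, at -1.50, without hepatoblast replicate 2, and without any of the 4 Diff. hepatocyte replicates. Nr4a3 read 1.81, 1.31, 1.59 and 0.795 CPM, 0.259, 0.215, 0.0444 and 0.0493 CPM and 1.85, 0.642, 0.642 and 3.35 CPM in the 3 groups, and Diff. hepatocytes were again called below both others (log2 fold changes -3.20 ± 0.65 and -3.44 ± 0.66, edgeR adjusted p = 0.000854 and 0.000473).

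Other immediate-early genes had the same low point. All 8 of the list were called lower in Diff. hepatocytes than in hepatoblasts, the median log2 fold change being -3.11, and 7 lower than in mature hepatocytes, where 14.0% and 15.6% of all genes were lower. Fosb, a subunit of AP-1, read 222 ± 45.7 CPM in the hepatoblasts, 0.642 ± 0.204 CPM in the Diff. hepatocytes and 71.9 ± 30.9 CPM in the mature hepatocytes, Fos 384 ± 79.5, 4.55 ± 1.48 and 181 ± 51.4 CPM, Egr1 603 ± 163, 63.2 ± 7.91 and 366 ± 96.1 CPM, and its relative Egr2 15.1 ± 4.45, 0.426 ± 0.106 and 1.21 ± 0.516 CPM. Unlike Nr4a1, none of the 8 was called higher in mature hepatocytes than in hepatoblasts, and 4 were called lower, beside 20.1% higher and 24.7% lower of all genes. Hepatoblasts and mature hepatocytes were dissociated from tissue directly before lysis and the cultured cells were not, and tissue handling and cell state cannot be told apart here.

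**Figure D5:**
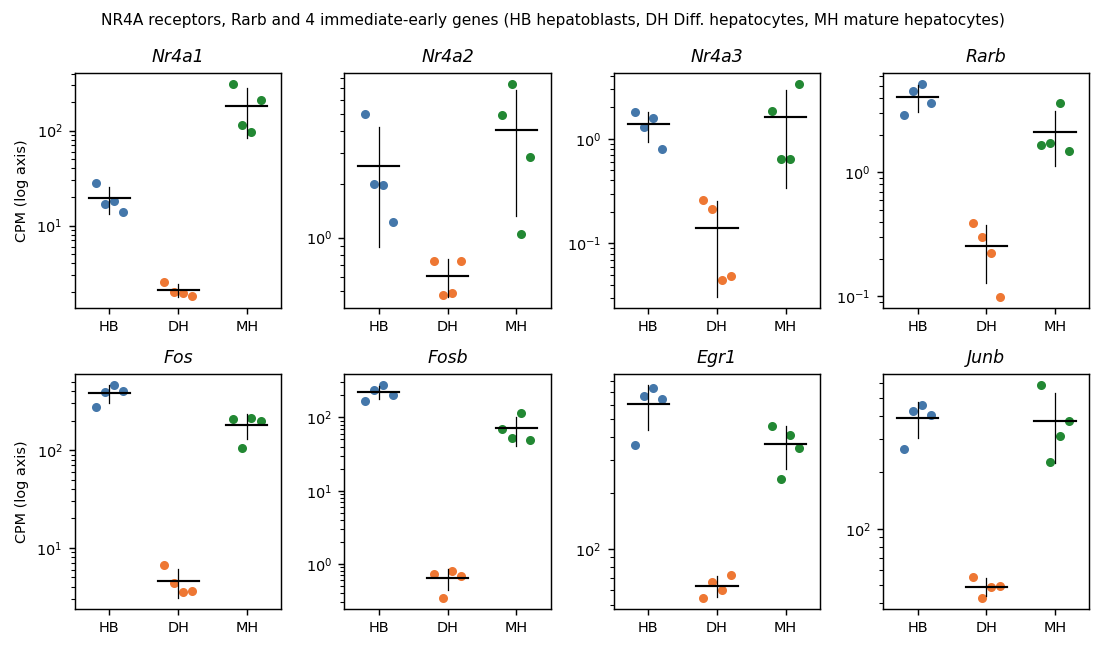
Levels in CPM, on log axes, of the NR4A genes, Rarb and 4 immediate-early genes in each library, with the mean (horizontal line) and SD (vertical line) of each group of 4. All Diff. hepatocyte points lie below all points of the other groups in the 8 panels.

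The promoters of the 3 NR4A genes share a sequence feature, the letters TGACG, which are part of the palindrome bound by the cyclic-AMP responsive factor CREB. Each RefSeq window of 250 bases before to 50 after the gene start holds 4 matches to TGACG on either strand, as do 76 of all 32851 windows (0.231%) with 4 or more, and no other member of the 41 with a window has 4. A full palindrome TGACGTCA would count as 1 match on each strand. The motif was picked after the levels were known, and a match is a description, not a site. The bases before each start are shown in lower case with TGACG or its reverse complement CGTCA in capitals, read 5′ to 3′ on the gene's strand from GRCm38.p6. They are chr15:101266596-101266845 on the plus strand for Nr4a1, which lies inside the longer GENCODE gene and outside its exons, chr2:57124004-57124253 on the minus strand for Nr4a2, and chr4:48045055-48045152 on the plus strand for Nr4a3, ended where a GENCODE exon begins, with 3 of its 4 matches.
Nr4a1: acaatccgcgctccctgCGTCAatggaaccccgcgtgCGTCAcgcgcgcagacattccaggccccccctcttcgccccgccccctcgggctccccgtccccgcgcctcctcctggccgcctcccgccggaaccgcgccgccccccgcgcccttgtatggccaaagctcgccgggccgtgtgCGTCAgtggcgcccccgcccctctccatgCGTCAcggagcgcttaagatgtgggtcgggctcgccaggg
Nr4a2: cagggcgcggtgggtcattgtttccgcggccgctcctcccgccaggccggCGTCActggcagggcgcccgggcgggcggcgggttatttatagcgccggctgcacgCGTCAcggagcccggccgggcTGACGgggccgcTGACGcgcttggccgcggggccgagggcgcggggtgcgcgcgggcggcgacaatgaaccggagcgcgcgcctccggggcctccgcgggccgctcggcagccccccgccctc
Nr4a3: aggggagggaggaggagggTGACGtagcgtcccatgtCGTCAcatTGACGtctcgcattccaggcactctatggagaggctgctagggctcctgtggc

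Over all 41 members with a window, 15 held TGACG at least once, where 23.0% of all 27025 genes did, 5 held the E-box CACGTG, where 8.09% did, 2 held TGACGTCA, where 2.03% did, and 11 held AGGTCA, the half-site that many nuclear receptors bind, where 18.1% did. The members with AGGTCA were Nr0b1, Nr1d2, Nr1h4, Nr5a2, Nr6a1, Pparg, Rara, Rarg, Rxra, Rxrg and Thrb.

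Hnf4g and Nr6a1 had their highest levels in hepatoblasts. Hnf4g, an orphan receptor better known from gut, read 1.26, 2.06, 2.56 and 2.25 CPM in the hepatoblasts, 0.0865, 0.172, 0.0444 and 0.0986 CPM in the Diff. hepatocytes and 0.137, 0.128, 0.117 and 0.0621 CPM in the mature hepatocytes. Both hepatocyte groups lay well below every hepatoblast library (log2 fold changes -4.26 ± 0.37 and -4.14 ± 0.39, edgeR adjusted p = 5.65e-07 and 5.41e-07), and from pooled counts hepatoblasts were 18.4-fold above mature hepatocytes (95% counting interval 8.80 to 46.2). Nr6a1, a repressor of pluripotency genes, read 17.5, 31.7, 31.9 and 29.8 CPM in the hepatoblasts, 15.9, 15.7, 19.1 and 19.3 CPM in the Diff. hepatocytes and 16.2, 13.7, 11.1 and 10.4 CPM in the mature hepatocytes, and was called lower in the mature group (-1.11 ± 0.19, edgeR adjusted p = 0.000152), a call that ended with the fold threshold inside the test (adjusted p = 0.245).

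The COUP-TF genes, repressors with roles in vessels and mesenchyme, did not move alike. Nr2f1 read 1.52, 1.4, 2.1 and 1.72 CPM in the hepatoblasts, 0.735, 0.43, 0.311 and 0.542 CPM in the Diff. hepatocytes and 0.48, 0.321, 0.292 and 0.31 CPM in the mature hepatocytes, lower in both (log2 fold changes -1.73 ± 0.28 and -2.26 ± 0.31). Nr2f2 read 22.7, 28.0, 30.5 and 31.3 CPM, 20.5, 14.6, 19.0 and 15.7 CPM and 36.9, 45.1, 40.4 and 66.6 CPM in the same order, and Nr2f6 26.3, 38.2, 42.7 and 45.9 CPM, 28.0, 33.1, 27.8 and 29.9 CPM and 78.9, 57.2, 80.6 and 82.3 CPM. Both were called lower in Diff. than in mature hepatocytes (log2 fold changes -1.44 ± 0.18 and -1.33 ± 0.16), not so with library totals. In mature hepatocytes against hepatoblasts Nr2f6 fell short of the fold threshold over all libraries (0.97 ± 0.16, edgeR adjusted p = 0.000107) and was not called. It was called higher there when hepatoblast replicate 3 or 4 or mature replicate 2 was left out, and when no fold threshold was set. The endothelial marker sum was likewise lowest in culture and the mesenchymal sum lowest in mature hepatocytes, and their part in the COUP-TF levels was not tested. Exons of Ocel1 on the opposite strand cover 54.4% of the Nr2f6 exons.

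The 3 members Nr5a2, Nr2c1 and Nr2c2 were called in no comparison. Nr5a2, a regulator of bile acid synthesis present from the earliest endoderm, read 63.0 ± 13.3, 53.0 ± 5.04 and 93.8 ± 20.5 CPM. The testicular receptors Nr2c1 and Nr2c2, named for the tissue of their discovery, read 17.5 ± 2.42, 23.8 ± 2.01 and 21.3 ± 2.86 CPM and 22.8 ± 3.59, 31.0 ± 2.47 and 20.5 ± 3.34 CPM.

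Vdr, the vitamin D receptor, was the member called higher in Diff. than in mature hepatocytes. It read 0.613, 0.299, 0.389 and 0.265 CPM in the hepatoblasts, 0.821, 0.215, 0.267 and 0.247 CPM in the Diff. hepatocytes and 0.0686, 0, 0.0584 and 0.0621 CPM in the mature hepatocytes, where the 4 libraries held 3 counts together. The pooled ratio of Diff. to mature hepatocytes was 8.30 (95% counting interval 2.62 to 42.2), and the edgeR call (adjusted p = 0.00363) was lost without Diff. hepatocyte replicate 1 or without mature replicate 2. In adult liver Vdr is known mainly from cells other than hepatocytes, and macrophage, mesenchymal and biliary markers were highest in Diff. hepatocyte replicate 1 among the cultured libraries, at 133, 2590 and 233 CPM. Their part in the Vdr level was not tested. Cyp2r1, which starts the activation of vitamin D in liver, was called higher in mature hepatocytes than in either other group, at 1.49 ± 0.442, 2.71 ± 0.783 and 20.8 ± 2.21 CPM.

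Of 16 tested coregulators, the proteins through which receptors act, 2 were called higher and none lower in Diff. hepatocytes than in hepatoblasts, 2 higher and 3 lower in mature hepatocytes, and 1 each way between Diff. and mature hepatocytes, with medians of 0.12, -0.05 and 0.21. The shares were 12.5% higher and 0.0% lower in culture and 12.5% and 18.8% in the adult, against 14.9%, 14.0%, 20.1% and 24.7% of all genes. Between Diff. and mature hepatocytes they were 6.25% each way, against 20.2% higher and 15.6% lower of all genes. The histone demethylase Kdm1a was called lower in mature hepatocytes than in hepatoblasts, at 69.7 ± 1.98 CPM in the hepatoblasts, 43.0 ± 3.01 CPM in the Diff. hepatocytes and 21.8 ± 1.98 CPM in the mature hepatocytes. Of the 17 tested enzymes that make or clear receptor ligands, 6 were called higher and 2 lower in Diff. hepatocytes and 11 higher and 4 lower in mature hepatocytes than in hepatoblasts, and 3 were higher and 11 lower in Diff. than in mature hepatocytes. Against hepatoblasts that is 35.3% higher and 11.8% lower in Diff. hepatocytes, where all genes had 14.9% and 14.0%. In mature hepatocytes it is 64.7% higher and 23.5% lower, where all genes had 20.1% and 24.7%. Between Diff. and mature hepatocytes it is 17.6% higher and 64.7% lower, where all genes had 20.2% and 15.6%.

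The remaining 7 members stayed at 10 counts or fewer in every library and were not tested. Nr2e1 and Nr2e3, receptors of brain and retina, had 0 counts in all 12 libraries. Nr0b1 and Nr5a1, of adrenal and gonad, had counts in hepatoblasts alone, at means of 0.194 and 0.0311 CPM, Pgr and Esr2, for progesterone and estrogen, had none in mature hepatocytes, and Rorb, of retina and brain, did not exceed 0.216 CPM in any library. At this depth their absence cannot be told from a level under the limit that 3 counts allow.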

How the data were processed

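RNA of 12 libraries, 4 biological replicates each of hepatoblasts, Diff. hepatocytes and mature hepatocytes, was analysed. The authors made poly(A)-selected libraries, read them as single 75-base reads, checked these with FastQC 0.11.2, mapped them to GRCm38 with STAR 2.5.2b and counted them on Ensembl release 92 genes, and the deposited table holds these counts as whole numbers, not normalized. The strand setting of the counting is not given in the sources used here. Versions are those of the submitters' processing notes.

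Each library was grouped by its label. Counts were tested in R 4.3.3 with edgeR 4.0.16 (TMM, quasi-likelihood, group as the only term, all 12 libraries), keeping the 17779 genes that passed 10 counts in at least 1 library, with Benjamini-Hochberg adjustment over all of them and calls at adjusted p under 0.01 with a log2 fold change beyond 1 in size. On simulated counts for Diff. hepatocytes against hepatoblasts, with 200 of 15082 genes changed, 169 of the 200 were called and 3 others. DESeq2 1.42.0 was an alternative. Depth was 19581551 to 25216977 counts, and the precision given is the spread of 4 libraries. The study's methods call the replicates biological and do not say whether groups share a preparation, so p-values measure only the spread between these samples.

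Symbols, positions and merged exon lengths came from GENCODE release M21 on GRCm38, and promoters from RefSeq on GRCm38.p6, with a window for 41 of the 45 members. Pooled ratios of counts are given with exact binomial 95% intervals. The members and all gene lists were chosen with earlier results of these data known, and the list targets are textbook genes. Members with more than 10 counts were all described, with every library's value for those called in a comparison at a group mean of at least 1 CPM, and for other lists the rule was up to 3 called genes in each direction and comparison, by size of change, besides the best known target of a receptor. The text names only a part of the genes this rule gives, chosen with the values known, and the rest are not reported here. A planned grouping of members by DNA-binding domain was not used here.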

Additional observations from a re-analysis of the deposited data

Results flagged for a closer look

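Of 114 groups of 4 libraries, 38 members in 3 groups, 19 had a highest or lowest library set apart by more than Dixon's 95% limit, where chance gives about 5.7 (1 in 20). Hepatoblast replicate 1 accounted for 6 of them, high for Thra (40.6 CPM, others 30.1 to 31.4) and Nr2c2 (28.2, others 20.5 to 21.6) and low for Nr3c2 (5.45, others 8.78 to 9.38), Esrra (22.1, others 27.0 to 27.6), Nr5a2 (43.3, others 67.6 to 72.5) and Nr6a1 (17.5, others 29.8 to 31.9). Diff. hepatocyte replicate 1 accounted for 4, high for Vdr (0.821 CPM, others 0.215 to 0.267) and Rarg (4.93, others 3.29 to 3.44) and low for Nr3c2 (6.05, others 7.95 to 8.14) and Esrrb (0.0432, others 0.387 to 0.444).

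The other hepatoblast libraries set apart were replicate 2 for Nr1d2, at 14 CPM, and replicate 4 for Nr1i3, at 1.09 CPM. Among Diff. hepatocytes they were replicate 2 for Nr1h2, at 36.2 CPM, replicate 3 for Rxrg, at 0 CPM, and replicate 4 for Rara, at 19.3 CPM. Among mature hepatocytes they were replicate 1 for Nr2f1, at 0.48 CPM, replicate 2 for Nr2f6, at 57.2 CPM, and for Vdr, at 0 CPM, and replicate 3 for Rarb, at 3.62 CPM. For Rxrg and Vdr the library set apart had 0 counts and each other library of its group 1 count. Dixon's limit cannot judge a difference of 1 count, and both are included in the 19.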

How the results depend on the processing

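The 38 tested members kept their 114 calls with DESeq2, with DESeq2's size factors in edgeR, in fits of the 8 libraries compared, with no filter beyond 1 count and with the replicate block. In all of these but the fit with no filter, 10 members were called higher and 6 lower in Diff. hepatocytes, 20 and 4 in mature hepatocytes against hepatoblasts, and 1 and 20 in Diff. against mature hepatocytes. With no filter, members of 10 counts or fewer were tested too, and the counts were 10 higher and 7 lower, 20 and 6, and 2 and 20. Replicate numbers were not taken to pair the samples, since same-numbered libraries of different groups had correlations of deviations of -0.081 to 0.324. The 3 of 12 above 0.1 were all between hepatoblasts and Diff. hepatocytes, at 0.324, 0.246 and 0.184 for replicates 1, 3 and 4 and -0.059 for replicate 2, and the sources used here do not say whether those groups share a preparation. Other settings moved counts. At an adjusted p under 0.05 with no fold threshold, 17 members were higher and 11 lower in Diff. hepatocytes than in hepatoblasts, 7 were lower in mature hepatocytes than in hepatoblasts and 3 higher in Diff. than in mature hepatocytes. That setting also added higher calls for Nr1h2, Rxrb, Rara, Nr2f2, Nr2f6 and Nr5a2 in mature hepatocytes against hepatoblasts. In Diff. against mature hepatocytes it added lower calls for Nr1h2, Nr1i2, Ppara, Rarg, Nr3c1 and Nr5a2. With library totals, 13 were higher and 8 lower in mature hepatocytes than in hepatoblasts and 3 higher in Diff. than in mature hepatocytes. With at least 10 counts asked of every library, 2 were lower in Diff. hepatocytes and 1 in mature hepatocytes than in hepatoblasts, and 0 higher in Diff. than in mature hepatocytes, since the low members were no longer tested. With the fold threshold inside the test, 7 were higher and 4 lower in Diff. hepatocytes, 17 higher and 2 lower in mature hepatocytes than in hepatoblasts, and 0 higher and 16 lower in Diff. than in mature hepatocytes. Leaving out 1 library at a time gave 10 to 11 higher and 5 to 6 lower in Diff. hepatocytes, 19 to 21 and 4 to 5 in mature hepatocytes, and 0 to 1 and 19 to 21 in Diff. against mature hepatocytes, where the 0 came without Diff. hepatocyte replicate 1 or mature replicate 2.

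Changes of sign fell on members that were not called. With library totals these were, as log2 fold changes of Diff. hepatocytes against hepatoblasts, Nr1h2 -0.11, Nr1h3 -0.05, Thrb -0.12 and Nr3c1 -0.18. In mature hepatocytes against hepatoblasts they were Nr1h2 -0.17, Rxrb -0.20, Rarg -0.85, Nr2c1 -0.57, Nr2f2 -0.10, Nr4a2 -0.21, Nr4a3 -0.67 and Nr5a2 -0.28, and in Diff. against mature hepatocytes Nr1h2 0.06, Rxrb 0.30, Rarg 0.05 and Hnf4g 0.37. Rarg in mature hepatocytes against hepatoblasts, near 0 in all libraries, also read -0.01 with DESeq2, with its size factors and with 8 libraries, -0.04 with no filter and -0.12 with 10 counts in every library. Without 1 library it ranged from -0.16 to 0.09, Nr4a3 in the same comparison from -0.42 to 0.49, and Vdr in Diff. hepatocytes against hepatoblasts from -0.67 to 0.30. In Diff. against mature hepatocytes, leaving out 1 library gave Esrra -0.04 to 0.24, Hnf4g -0.52 to 0.11, Rora -0.03 to 0.17 and Thra -0.15 to 0.10. The cause of these changes was not tested. Depth limits the members under 1 CPM, such as Vdr, Esrrb, Esr2 and Rxrg outside the adult, where a few counts decide a value, and 4 libraries per group limit the rest.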

Other observations

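Enzymes that serve the receptors' target programmes reached the adult level in culture in some cases and not in others. Ces2a, a carboxylesterase induced through PXR, stood at 31.2 ± 6.73 CPM in the hepatoblasts, 452 ± 78.2 CPM in the Diff. hepatocytes and 471 ± 49.2 CPM in the mature hepatocytes, with no call between the last pair (log2 fold change -0.06 ± 0.16). Por, the reductase that feeds electrons to cytochromes P450, read 110 ± 14.3, 820 ± 54.6 and 505 ± 221 CPM, and Alas1, the first enzyme of heme synthesis, 30.1 ± 3.47, 215 ± 25.1 and 993 ± 630 CPM. Srd5a1, a steroid reductase, was not called between hepatoblasts and Diff. hepatocytes and was far higher in the adult, at 5.78 ± 0.907, 4.14 ± 0.526 and 140 ± 7.0 CPM. Cyp27a1, which starts the alternative route of bile acid synthesis, was called in all 3 comparisons, at 7.55 ± 1.24, 95.5 ± 19.0 and 707 ± 74.5 CPM. These genes were chosen from the lists after their values were seen.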
